A study of Mus musculus with 8 samples.

Results

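Mouse CD4 T cells grown for 5 days under Th1 conditions were compared with cells of the same origin grown for 5 days under Th17 conditions. The comparison rests on the 2 Th1 and 2 Th17 arrays, 4 of the 8 arrays of the series, and on every gene of these arrays that could be named. Both groups began as naive CD4 T cells from spleen and lymph node of OT-II mice, aged 6 to 8 weeks, on the C57BL/6 background. OT-II mice carry a T cell receptor transgene that recognizes an ovalbumin peptide. Cells of both groups were activated with that peptide and antigen-presenting cells in RPMI-1640 medium with serum. The Th1 group received IL-12 at 10 ng/ml and a blocking antibody to IL-4. The Th17 group received IL-6 at 20 ng/ml, TGF-beta, and blocking antibodies to IL-4 and to interferon-gamma. The labels give the antibodies at 10 mg/ml and TGF-beta at 5 mg/ml, repeated here as labelled. The 2 Th2 arrays (IL-4 at 10 ng/ml and the antibody to interferon-gamma, same mice and time) served to estimate the spread and to place levels.

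The antigen-presenting cells are described no further and no sort at harvest is given, so other cells may have contributed RNA. Nothing in the labels says whether replicates came from separate mice or separate cultures. The p-values therefore measure only the spread between these arrays, which may be technical.

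Th1 and Th17 cells are alternative fates of an activated CD4 T cell. IL-12 acts through STAT4, and the T-box factor T-bet then directs production of interferon-gamma, which activates macrophages against intracellular microbes. IL-6 acts through STAT3 and, together with TGF-beta, leads through factors of the ROR family to IL-17, which draws neutrophils to epithelial surfaces. The comparison asks how the transcript levels of the 2 fates differ.

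Values are on the log2 scale, so a difference of 1 is a doubling of the linear value. A gene is represented by 1 probe set, and levels are compared between arrays for a gene, never between genes. Of 18193 named genes, 10635 lay above 3.06, the 50th percentile of all values, in at least 2 of the 6 cultured arrays, and these were tested. A gene was called when limma's Benjamini-Hochberg adjusted p was under 0.05 and the difference was at least 1. A gene was counted as apart when both arrays of 1 group lay above both arrays of the other and the means differed by at least 1, a description that carries no test.

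The 4 arrays separated poorly by group over all genes. Between replicates, 1425 tested genes differed by more than 1 log2 unit in Th1 and 1324 in Th17, against 681 in Th2. The Th1 and Th17 means differed by as much in 776 genes. The pairs of 1 Th1 and 1 Th17 array ranged from 939 genes, for both replicates 1, to 1711. The median difference over all tested genes was 0.005.

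**Figure D1:**
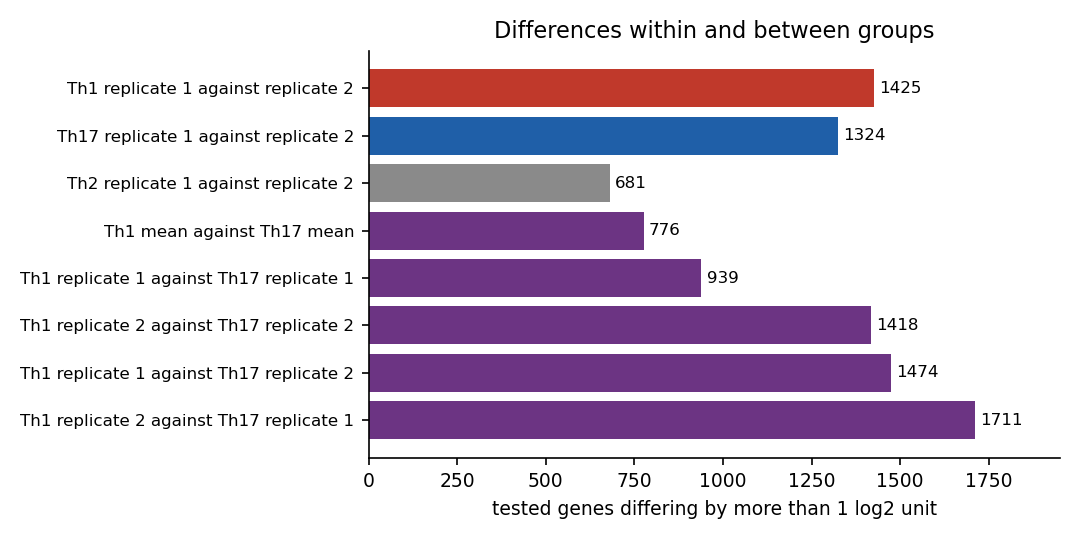
Number of the 10635 tested genes (horizontal axis) that differed by more than 1 log2 unit between the 2 arrays or 2 means named at the left. The Th1 replicates differed in 1425 genes and the Th17 replicates in 1324, more than the 939 genes between replicate 1 of Th1 and replicate 1 of Th17.

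With that spread the fit called 3 genes, 0.0282% of those tested. Serpinb9 (0.00940% of tested genes in that direction) rose in Th1, and Stard8 and Ahrr (0.0188%) rose in Th17. At an unadjusted p under 0.05 there were 710 genes, 283 higher in Th1 (2.66%) and 427 higher in Th17 (4.02%), together 6.68% of those tested. In simulated data of the same size the procedure recovered 0% of differences of 1 log2 unit. It recovered 61.5% of differences of 2 and 83.5% of differences of 4, so a gene that was not called may still differ. The changed genes were drawn at random, so these rates need not hold for genes whose replicates scatter widely. Nkg7, for example, was not called at a difference of 5.91 (SE 0.99). By the description without a test, 584 genes (5.49%) were apart: 212 higher in Th1 (1.99%) and 372 higher in Th17 (3.50%). Differences of at least 2 log2 units made up 72 and 134 of these.

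**Figure D2:**
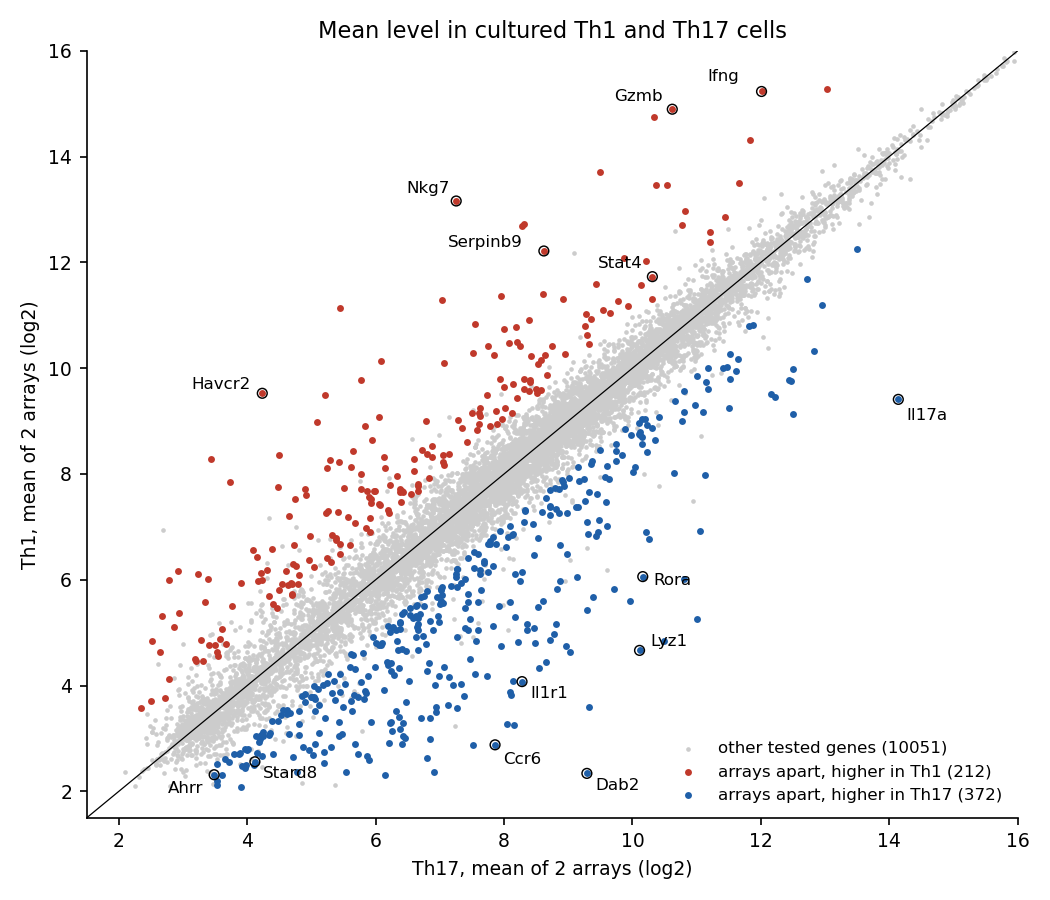
Mean of the 2 Th1 arrays (vertical axis, log2) against the mean of the 2 Th17 arrays (horizontal axis, log2) for 10635 tested genes, with the line of equality. The 212 genes whose arrays lay apart and higher in Th1 are red, the 372 higher in Th17 are blue, and circled genes are named in the text.

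Serpinb9 encodes an inhibitor of granzyme B that protects cells carrying cytotoxic granules from their own protease. Its level was 12.33 and 12.10 in the Th1 arrays, 8.74 and 8.50 in the Th17 arrays, and 11.16 and 10.90 in the Th2 arrays. Both Th1 arrays lay above all others, and the groups did not overlap. The difference between Th1 and Th17 was 3.59 (SE 0.18, adjusted p = 0.0320), and a second probe set gave 3.51. Th17 also lay below Th2, by 2.41 (adjusted p = 0.0311, called as were 0.207% of tested genes in that direction), whereas the Th1 excess of 1.18 over Th2 was not called (adjusted p = 0.133).

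Stard8 encodes a protein with a lipid-binding domain, and Ahrr encodes the repressor of the aryl hydrocarbon receptor, a ligand-activated transcription factor. Stard8 stood at 2.50 and 2.62 in Th1, 4.10 and 4.14 in Th17, and 2.51 and 2.50 in Th2. For Ahrr the values were 2.31 and 2.32 in Th1, 3.45 and 3.52 in Th17, and 2.32 and 2.30 in Th2. In both genes the Th17 arrays alone lay above the filter value of 3.06, and the replicates agreed closely. Stard8 was higher in Th17 than in Th1 by 1.55 (SE 0.08, adjusted p = 0.0320) and than in Th2 by 1.61 (adjusted p = 0.00783), a direction in which 0.0470% of tested genes were called. Ahrr was higher by 1.17 (SE 0.06, adjusted p = 0.0320) and by 1.17 (adjusted p = 0.00788). Both are dim: they passed the filter through the Th17 arrays only, and neither was tested when the filter stood at the 65th percentile.

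The 3 calls were not robust to the arrays used. Leaving out any 1 of the 6 arrays, Th2 arrays included, ended all 3, with adjusted p from 0.109 to 0.160. Without replicate 1 of Th17, 2 other genes, Il17re and Prr29, were called in their place, and the fit with all 8 arrays called 9 genes higher in Th1 and 15 higher in Th17. What follows therefore gives the level in each array, and "apart" describes those levels without claiming a test.

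The start of Ahrr is shown because genes driven by the aryl hydrocarbon receptor are known to carry the core letters GCGTG, and Ahrr is a textbook target. The 250 bases before its start, chr13:74292332-74292581 on the minus strand (RefSeq, GRCm38.p6), hold GCGTG 3 times, in capitals, the first bases lying 107, 82 and 27 bases before the start.
Ahrr: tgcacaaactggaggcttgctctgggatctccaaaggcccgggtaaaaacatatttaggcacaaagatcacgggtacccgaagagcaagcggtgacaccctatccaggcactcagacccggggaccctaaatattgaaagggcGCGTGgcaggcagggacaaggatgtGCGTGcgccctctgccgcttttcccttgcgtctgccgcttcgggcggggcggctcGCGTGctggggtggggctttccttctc
GCGTG on either strand is frequent, being present in 46.2% of the same windows of the 8702 tested genes that have one, in 42.3% of those of genes apart and higher in Th17 and in 30.2% of those higher in Th1. A match describes letters and is no measured site.

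Ifng, Tbx21, Stat4 and Eomes each had both Th1 arrays above both Th17 arrays, and 0 of the 4 were called. Ifng, encoding interferon-gamma, stood at 15.39 and 15.07 in Th1, 13.30 and 10.72 in Th17, and 14.12 and 12.09 in Th2. Both Th1 arrays were above all others, while the Th17 replicates differed from each other by more than the gap between Th1 and the higher of them. The difference was 3.21 (SE 1.07, adjusted p = 0.676) and was not called. Tbx21, encoding T-bet, read 10.89 and 9.43 in Th1 against 8.82 and 8.32 in Th17, apart by 1.59 (SE 0.60, adjusted p = 0.742). Stat4, the transducer of IL-12, read 11.51 and 11.95 against 10.22 and 10.40, with 9.15 and 9.08 in Th2. Its replicates were close, and the order Th1, Th17, Th2 held in every array. The Th1 excess of 1.42 over Th17 (SE 0.20, adjusted p = 0.263) was not called, whereas that of 2.62 over Th2 was (adjusted p = 0.0291), as were 0.0470% of tested genes. Eomes, a second T-box factor, read 8.76 and 9.07 in Th1 against 4.91 and 6.75 in Th17, a difference of 3.09 (SE 0.80, adjusted p = 0.598) that a second probe set gave as 3.38.

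Receptors of the Th1 pathway did not separate the groups in the same way. Il12rb2, the inducible chain of the IL-12 receptor, read 10.73 and 8.24 in Th1, 8.71 and 9.29 in Th17, and 3.18 and 4.58 in Th2. Th1 and Th17 overlapped, and both lay far above Th2. Cxcr3, the receptor for interferon-induced chemokines, overlapped too, at 7.06 and 9.60 against 8.78 and 9.09. Il18r1, a chain of the IL-18 receptor, read 10.46 and 7.89 against 6.17 and 10.07, so that the gap between the Th17 arrays exceeded the difference of 1.06 between the group means. The 2 chains of the interferon-gamma receptor went opposite ways: Ifngr1 read 9.23 and 8.60 in Th1 against 7.05 and 8.51 in Th17. Ifngr2, the signalling chain that Th1 cells are known to lose, read 2.23 and 3.55 against 5.69 and 5.66, apart by 2.78 (SE 0.46, adjusted p = 0.378).

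Among the 27 Th1 programme genes on the array, 25 were tested, 0 were called, 13 were apart and higher in Th1 and 2 (Ifngr2 and Runx1) apart and higher in Th17. Their median difference was 1.42, against 0.005 for all tested genes, and the shares apart over all tested genes are the 1.99% and 3.50% above. A gene that passed the filter only where it is high had to differ, so such counts describe the lists and test nothing.

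The window before Ifng is shown for comparison with that of Il17a below. It spans chr10:118440796-118441045 on the plus strand, and capitals mark its 1 match to the STAT letters TTCNNNGAA, on either strand, 249 to 241 bases before the start.
Ifng: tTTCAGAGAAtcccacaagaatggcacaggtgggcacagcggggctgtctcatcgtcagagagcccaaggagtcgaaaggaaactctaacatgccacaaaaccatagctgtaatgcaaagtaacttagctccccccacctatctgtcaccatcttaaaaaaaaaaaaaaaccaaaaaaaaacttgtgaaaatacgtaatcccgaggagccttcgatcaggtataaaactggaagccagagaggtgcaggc
The T-box letters TCACACC and the AP-1 letters TGANTCA are not in this window. STAT letters were present in 5.96% of all windows, 8.02% of those of genes apart and higher in Th1 and 7.51% of those higher in Th17. T-box letters were present in 2.75%, 5.56% (9 of 162) and 2.39% (7 of 293).

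Cytotoxic granule genes formed the group with the most members higher in Th1. Of 22 on the array 19 were tested, 1 (Serpinb9) was called, 15 were apart and higher in Th1 and 0 higher in Th17, with a median difference of 3.07. Leaving out any 1 of the 4 arrays gave 15 or 16 members apart. Over all tested genes, leaving out 1 array gave 3.55% to 4.68% higher in Th1 and 4.37% to 6.84% higher in Th17. Counts of other lists with 1 array left out are to be set beside those shares. Gzmb, encoding granzyme B, read 15.39 and 14.40 in Th1, 12.49 and 8.75 in Th17, and 14.11 and 13.28 in Th2. The Th1 arrays were the highest, Th2 came next, and the Th17 arrays differed widely from each other, so the difference of 4.28 had an SE of 1.29 (adjusted p = 0.640). Nkg7, encoding a granule membrane protein, read 13.73 and 12.59 in Th1, 8.57 and 5.94 in Th17, and 9.60 and 8.65 in Th2, the largest gap of the list at 5.91 (SE 0.99, adjusted p = 0.391).

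Other granule genes scattered more between replicates, and Th2 was not always between Th1 and Th17. Gzmc read 11.77 and 10.52 in Th1 against 6.87 and 4.02 in Th17. Prf1, encoding the pore-forming protein perforin, read 10.86 and 8.12 against 7.35 and 3.07. Gzmd, Gzme, Gzmf and Gzmg were also apart, with differences from 1.32 to 3.89 between Th1 and Th17. In these 4 genes Th2 replicate 1, at 11.82, 10.75, 7.34 and 9.71, was above both Th1 arrays. Gzma, encoding granzyme A, overlapped at 13.83 and 10.51 in Th1 against 10.63 and 7.56 in Th17, with 15.37 and 14.52 in Th2. Serpinb6b, another serine protease inhibitor of granule-bearing cells, read 13.06 and 12.38 against 8.70 and 7.93 with 11.10 and 11.19 in Th2. All 4 arrays kept their sides in Serpinb6b, and its difference of 4.40 (SE 0.35, adjusted p = 0.126) had the smallest adjusted p among uncalled genes higher in Th1. Srgn, encoding the granule proteoglycan serglycin, was level, at 15.05 and 14.85 against 15.02 and 15.02.

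Of the killer-cell surface genes, some were apart and higher in Th1 and others were not. Klrk1, encoding NKG2D, read 11.67 and 9.18 in Th1 against 6.77 and 8.74 in Th17. Klrd1, encoding CD94, read 11.27 and 9.31 against 5.85 and 9.18. Klrc1, encoding the NKG2A partner of CD94, overlapped at 11.51 and 6.37 against 8.34 and 8.33. Klrg1, a receptor of late effector cells, overlapped at 3.82 and 3.74 against 3.84 and 2.64, and Klra8, an NK cell receptor, stayed at or below 3.10 in these 4 arrays. Cd8b1, the beta chain of CD8, read 7.39 and 7.19 against 4.91 and 5.92, with 6.45 and 7.00 in Th2. Cd8a, the chain required for surface CD8, was low, at 4.06 and 3.76 against 3.51 and 3.38, a difference of 0.47 that was not called, and the NK cell marker Ncr1 lay between 2.26 and 2.30 in all 6 arrays. Of the 13 CD8 and NK cell markers on the array 9 were tested and 5 were apart and higher in Th1, 4 of them (Klrk1, Klrd1, Eomes and Xcl1) being members of the Th1 or granule lists as well. The summed linear level of these markers, as log2, was 15.13 and 14.18 in Th1 and 11.21 and 12.13 in Th17. Without Xcl1 and Gzma, which carry much of it, it was 13.18 and 10.98 against 9.20 and 10.59. Their part in the granule result was not tested, and in bulk RNA more cells of a type and more RNA per cell cannot be told apart.

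Cytokines and chemokines of effector cells divided by type. Csf2, encoding GM-CSF, read 13.13 and 13.79 in Th1, 10.91 and 9.81 in Th17, and 12.66 and 12.83 in Th2. It was lowest in both Th17 arrays, and the difference of 3.10 from Th1 (SE 0.43, adjusted p = 0.263) was not called. Il3, a growth factor for myeloid and mast cells, read 14.55 and 14.94 in Th1 against 11.87 and 8.81 in Th17. The chemokines Ccl3, Ccl4 and Ccl5, which attract monocytes and effector T cells, were apart by 2.23, 2.92 and 3.03. Ccl1, the ligand of CCR8, read 11.67 and 13.72 in Th1, 7.64 and 8.91 in Th17, and 10.35 and 10.08 in Th2. Xcl1, which attracts cross-presenting dendritic cells, read 13.54 and 13.88 in Th1 against 7.56 and 11.43 in Th17.

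Il2, encoding the T cell growth factor, did not separate the groups: 12.46 and 13.90 in Th1 against 12.43 and 13.75 in Th17. Lif, a cytokine of the IL-6 family, was apart in the other direction, at 9.33 and 10.56 in Th1 against 11.54 and 11.67 in Th17. Of 28 tested cytokines (29 on the array) 7 were apart and higher in Th1 and 3 (Il17a, Il21 and Lif) higher in Th17, with a median difference of 0.61. Among 17 tested chemokines (20 on the array) the counts were 5 and 3, and 0 members of either list were called. Without Th1 replicate 2, and equally without Th17 replicate 2, the chemokine counts were 6 and 7, so the side with more members turned. The cytokine counts were 10 and 6 without Th1 replicate 2 and 11 and 6 without Th17 replicate 2.

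Th2 cytokines were present in part of the Th1 arrays. Il4 read 6.11 and 10.60 in Th1, 5.54 and 3.46 in Th17, and 15.20 and 15.57 in Th2. Th1 replicate 2 held the higher value, and the difference of 3.85 between Th1 and Th17 had an SE of 1.62 (adjusted p = 0.785). Gata3, the Th2 transcription factor, overlapped at 4.95 and 7.74 against 5.95 and 6.97, below the 10.44 and 11.13 of Th2. Il13 overlapped between Th1 and Th17 as well, and Il5 stood at 2.76 and 4.02 against 2.76 and 2.72. Il5 was lower than in Th2 by 8.00 in Th1 (adjusted p = 0.0156) and by 8.65 in Th17 (adjusted p = 0.0105), and both calls belong to the directions in which 0.244% and 0.207% of tested genes were called. Il10, encoding an inhibitory cytokine, read 12.24 and 6.80 in Th1 against 9.37 and 6.52 in Th17, and differed more between replicates than between groups.

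**Figure D3:**
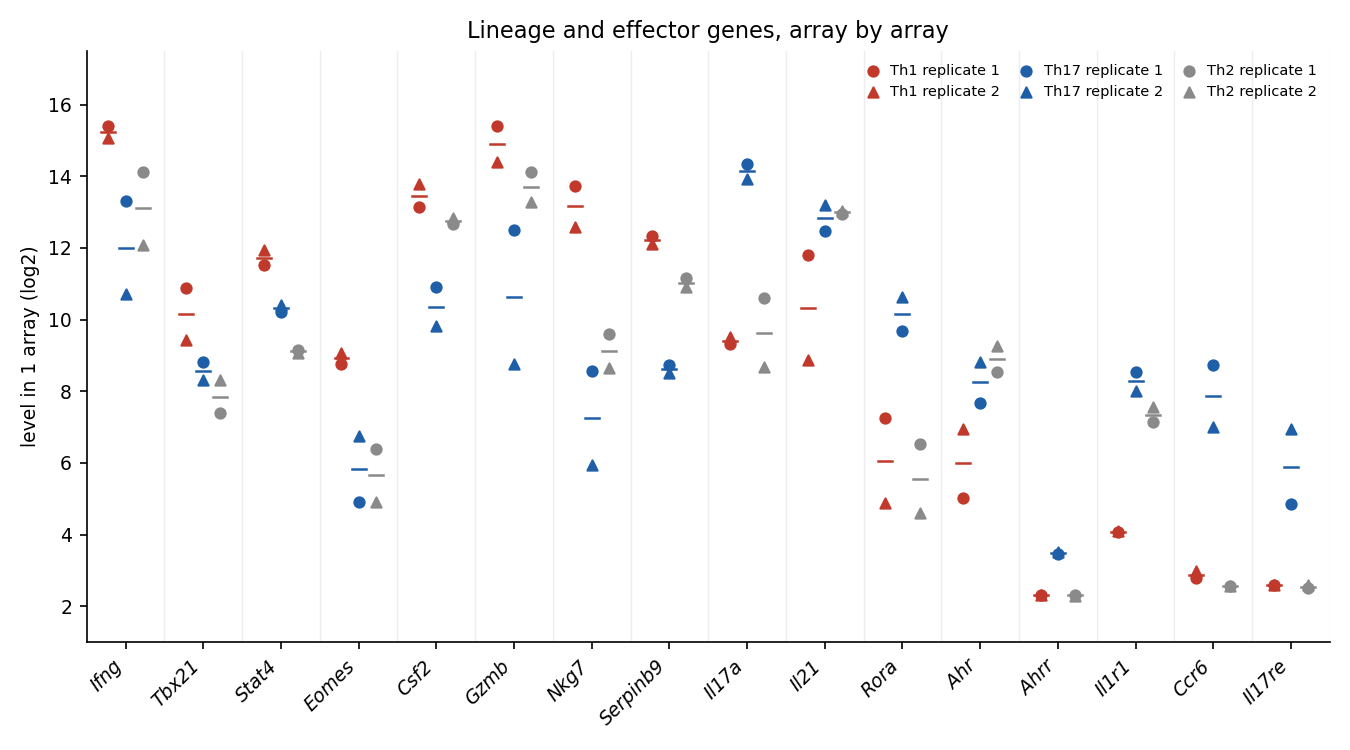
Level (log2, vertical axis) of 16 genes in each cultured array: Th1 red, Th17 blue, Th2 grey, replicate 1 as circles and replicate 2 as triangles, short lines at the mean of 2 arrays. The 8 genes at the left have both Th1 arrays above both Th17 arrays and the 8 at the right the reverse, while gaps between replicates reach several units in Gzmb, Nkg7 and Il21.

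Il17a, encoding the defining cytokine of Th17 cells, read 14.35 and 13.93 in Th17, 9.31 and 9.51 in Th1, and 10.59 and 8.67 in Th2. Both Th17 arrays lay more than 3 units above every other array. The difference from Th1 was 4.73 (SE 0.65, adjusted p = 0.257) and that from Th2 4.51 (adjusted p = 0.162), neither of which was called. Il17re, a chain of the receptor for the epithelial cytokine IL-17C, read 4.84 and 6.95 in Th17 against 2.58 and 2.59 in Th1, with 2.52 and 2.58 in Th2. Only the Th17 arrays lay above the filter value of 3.06, so a difference was built into the testing of Il17re. Il21, a cytokine shared by Th17 and follicular helper cells, read 12.46 and 13.20 in Th17 against 11.79 and 8.86 in Th1, and 12.95 and 13.04 in Th2. It was apart from Th1 by 2.50 (SE 0.99, adjusted p = 0.761) and level with Th2.

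Rora and Ahr were the transcription factors of the Th17 list that were apart. Rora, encoding the nuclear receptor ROR-alpha, read 9.68 and 10.64 in Th17, 7.24 and 4.88 in Th1, and 6.53 and 4.59 in Th2. Its 6 other probe sets also put Th17 higher, by 1.28 to 3.96, beside the 4.10 of the chosen one (SE 1.06, adjusted p = 0.598). Ahr, encoding the aryl hydrocarbon receptor, read 7.67 and 8.82 in Th17, 5.03 and 6.94 in Th1, and 8.55 and 9.25 in Th2. Th17 lay above Th1 by 2.26 (SE 0.78, adjusted p = 0.698) and overlapped with Th2, whereas its repressor Ahrr was high in Th17 alone. Of the other receptor targets, Cyp1a1 stood at 2.07 and 2.08 in Th1 and 2.20 and 2.84 in Th17 and was not tested, and Tiparp read 8.36 and 7.10 against 8.46 and 8.66, a difference of 0.83 in favour of Th17. Of the 10 genes of this list on the array 7 were tested, 1 (Ahrr) was called and 2 (Ahr and Ahrr) were apart and higher in Th17.

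Other factors of the pathway did not separate the groups by 1 unit with both arrays. Maf overlapped at 11.61 and 12.61 in Th17 against 11.68 and 9.10 in Th1 on its chosen probe set. Its 5 other probe sets put Th17 higher by 0.01 to 3.37. Stat3, Batf, Irf4 and Hif1a gave differences from 0.17 to 0.57 in favour of Th17, with overlapping arrays in Stat3, Batf and Hif1a. The Th17 programme as a whole had 26 genes on the array, all tested, 0 called, 0 apart and higher in Th1 and 12 apart and higher in Th17. The median difference was 1.44 in favour of Th17. Leaving out 1 array gave 13 to 15 members higher in Th17, against 465 to 727 of all tested genes.

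The window before Il17a is printed because ROR factors are known to act at this gene. It spans chr1:20730655-20730904 on the plus strand, and capitals mark the ROR letters AGGTCA, found once, on the opposite strand, 120 to 115 bases before the start.
Il17a: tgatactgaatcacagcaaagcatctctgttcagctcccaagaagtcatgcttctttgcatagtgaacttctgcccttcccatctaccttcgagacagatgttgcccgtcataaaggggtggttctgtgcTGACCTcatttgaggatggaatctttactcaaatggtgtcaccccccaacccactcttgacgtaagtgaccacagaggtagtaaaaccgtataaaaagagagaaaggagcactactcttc
The STAT letters are not in this window. The AP-1 letters TGANTCA match once, on the plus strand, 244 to 238 bases before the start, and are left in lower case. ROR letters were present in 10.5% of all windows, 10.5% of those of genes apart and higher in Th1 and 13.3% (39 of 293) of those higher in Th17. The AP-1 letters were present in 4.33%, 8.02% and 9.22%, and the SMAD letters CAGAC in 40.8%, 39.5% and 42.0%. Both strands were searched for every motif, and none of the motifs contains another.

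Some receptors for cytokines and chemokines were apart and higher in Th17. Il1r1, the IL-1 receptor that sustains Th17 cells, read 8.54 and 8.02 in Th17, 4.06 and 4.09 in Th1, and 7.13 and 7.57 in Th2. The Th1 arrays were far below all others, and the difference of 4.20 (SE 0.30, adjusted p = 0.107) was among the nearest to a call. Ccr6, the receptor for CCL20 that guides Th17 cells to mucosa, read 8.73 and 6.99 in Th17, 2.78 and 2.98 in Th1, and 2.57 and 2.56 in Th2. It was above the filter value of 3.06 in the Th17 arrays alone, so a difference was built into its being tested. Ccr6 differed by 4.98 from Th1 (SE 0.58, adjusted p = 0.230). Its ligand gene Ccl20 reached 7.24 in 1 Th17 array and 2.82 in the other, against 2.82 and 3.98 in Th1.

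Ccr4, a receptor for skin homing, read 6.64 and 8.10 in Th17 against 3.48 and 4.13 in Th1, with 6.68 and 7.95 in Th2. Cxcr5, the receptor for entry into follicles, read 8.12 and 6.02 against 3.34 and 5.37. Gpr15, a receptor for homing to the colon, read 3.46 and 4.28 against 3.04 and 2.36. Gpr15, like Ccr6, passed the filter only through the Th17 arrays, so a difference was built into its being tested. Both enter the count that follows. In Ccr4, Cxcr5 and Gpr15 the Th1 arrays were lower, and Ccr4 was as high in Th2 as in Th17. Of 18 tested chemokine and homing receptors (21 on the array) 9 were apart and higher in Th17, 0 higher in Th1 and 0 called, with a median difference of 1.26 in favour of Th17. Among 28 tested cytokine receptors (29 on the array) 6 were apart and higher in Th17 and 1, Ifngr1, higher in Th1. Without Th1 replicate 2 the cytokine receptor counts were 5 higher in Th17 and 5 higher in Th1, and without Th17 replicate 2 they were 7 and 6. Ccr7, which keeps cells in lymph nodes, read 11.40 and 11.48 in Th1 against 11.04 and 11.24 in Th17, a difference of 0.30.

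Genes that answer to the 2 added cytokines gave few differences. Itgae, encoding the TGF-beta-induced integrin CD103, read 5.04 and 5.06 in Th17, 3.24 and 3.79 in Th1, and 6.07 and 6.98 in Th2. The Th17 arrays were above Th1 by 1.54 (SE 0.38, adjusted p = 0.585), and by 0.04 on a second probe set. The Th2 arrays, from cultures given no TGF-beta, were higher than those of Th17, and a cause was not tested. Smad7, the feedback inhibitor of TGF-beta signalling, read 7.22 and 7.25 in Th17 against 7.42 and 6.87 in Th1. Id3, an inhibitor of E proteins, read 9.45 and 9.71 in Th17, 6.71 and 8.22 in Th1, and 6.04 and 5.62 in Th2, with both Th17 arrays above all others. Of 25 tested genes of the TGF-beta list (29 on the array) 3 (Itgae, Id1 and Id3) were apart and higher in Th17 and 0 higher in Th1, and leaving out 1 array gave 4 to 7 and 1 to 2.

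Socs3, the feedback inhibitor of IL-6 signalling, overlapped at 12.03 and 11.28 in Th17 against 11.40 and 10.23 in Th1. Il6ra, the IL-6 receptor, read 4.67 and 5.40 against 3.35 and 4.21, apart by 1.25, while its second probe set gave 0.03. Of 20 tested IL-6 and STAT3 genes (22 on the array) 3 (Il21, Il6ra and Cebpd) were apart and higher in Th17 and 0 higher in Th1, and without Th1 replicate 2 the counts were 3 and 3. Foxp3, the factor of regulatory T cells that TGF-beta can induce, lay between 2.36 and 2.40 in all 6 arrays, below the filter.

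Interferon-response genes differed between replicates, most of all in Th17. In Th17 replicate 2, 21 of 29 tested members were higher than in replicate 1 by at least 1 unit and 0 were lower by as much. Over all tested genes those counts were 609 and 715. Replicate 2 was higher by as much in 9 members and lower in 2 in Th1, against 667 and 758 of all tested genes. In Th2 it was higher in 10 and lower in 2, against 249 and 432. Iigp1, an interferon-induced GTPase, read 5.39 and 12.25 in the 2 Th17 arrays and 7.61 and 10.90 in Th1. Gbp2, a guanylate-binding protein, read 11.70 and 14.66 in Th17 and 12.67 and 13.06 in Th1. Irgm1 read 9.12 and 12.52 in Th17 and 8.72 and 10.35 in Th1. In all 3, Th17 replicate 2 was the highest of the 4 arrays, as it was for 18 of the 29 members.

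With all 4 arrays, 3 of the 29 (Irf8, Isg20 and Usp18) were apart and higher in Th1 and 1, Cxcl10, higher in Th17. Without Th17 replicate 1 the counts were 2 and 11, and without Th17 replicate 2 they were 15 and 1, so the direction of the list depended on which Th17 array was kept. Over all tested genes the same 2 settings gave 442 and 661, and 378 and 591. Irf8, encoding an interferon regulatory factor, read 12.29 and 11.86 in Th1 against 9.22 and 10.53 in Th17, and a second probe set gave 2.24 beside its difference of 2.20. Cxcl10, an interferon-induced chemokine, read 9.64 and 10.86 in Th17, 6.20 and 7.33 in Th1, and 7.09 and 4.85 in Th2.

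Surface receptors of activation and restraint had more members apart and higher in Th1 than in Th17. Havcr2, encoding TIM-3, read 10.00 and 9.05 in Th1, 5.42 and 3.05 in Th17, and 8.75 and 9.67 in Th2. Both Th17 arrays were lowest, and the difference of 5.29 had an SE of 0.90 (adjusted p = 0.391). Tnfrsf18, encoding GITR, read 12.85 in both Th1 arrays against 11.54 and 11.33 in Th17. Lag3 read 8.72 and 7.84 against 7.44 and 5.75. Tnfrsf25, the receptor DR3 for the cytokine TL1A, went the other way, at 8.39 and 9.35 in Th17 against 5.97 in both Th1 arrays. Of 25 tested members (26 on the array) 7 were apart and higher in Th1 and 1 (Tnfrsf25) higher in Th17, with 0 called. Leaving out 1 array gave 7 to 11 in favour of Th1 and 3 to 7 in favour of Th17, with 8 and 7 without Th17 replicate 2. Of all 25 differences, apart or not, 13 were in favour of Th1 and 12 in favour of Th17.

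Adhesion molecules and programmes of other T cell types had 4 or fewer members apart in either direction. Itga3, an integrin that binds laminin, read 10.09 and 8.52 in Th17 against 7.85 and 5.89 in Th1, and Itga3, Itgae, Itgax and Emb were the 4 of 19 tested integrin and adhesion genes (22 on the array) apart and higher in Th17. Of 15 tested Tfh genes (18 on the array) 3 were apart and higher in Th17: Cxcr5, Il21 and Tox2, a nuclear factor that read 7.95 and 9.02 in Th17, 3.51 and 6.11 in Th1, and 9.09 and 9.03 in Th2. Of 16 tested regulatory T cell genes (17 on the array) 2 were apart each way. Among 17 tested Th2 genes (19 on the array) Il4 was apart and higher in Th1 and Ccr4, Ecm1 and Pparg higher in Th17. Genes of early T cell receptor signalling gave 3 of 27 tested (28 on the array) higher in Th1 and 1, Il2ra, higher in Th17. Without Th17 replicate 1 the early signalling counts were 3 and 4 and the Th2 list counts 5 and 4, so the side with more members turned in both. Nr4a2, a nuclear receptor induced by that signal, read 11.37 and 12.70 in Th1 against 9.92 and 10.50 in Th17. In each of these lists 0 members were called. Shares higher in Th17 were 21.1% (adhesion), 20.0% (Tfh), 17.6% (Th2), 12.5% (regulatory T) and 3.70% (early signalling), against 3.50% of all tested genes. Shares higher in Th1 were, in that order, 0%, 0%, 5.88%, 12.5% and 11.1%, against 1.99%.

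Several genes outside the lists were nearest to a call. On the Th1 side these were Adgre5, the adhesion receptor CD97 (10.27 and 10.73 against 8.39 and 8.01), and Gch1, the first enzyme of tetrahydrobiopterin synthesis (10.32 and 10.62 against 7.81 and 8.33). Clcf1, a cytokine of the IL-6 family, read 8.08 and 8.16 in Th1 against 6.20 and 6.08 in Th17, and its 2 other probe sets gave 1.53 and 1.64 beside its 1.98. Gfod1 gave 0.46 on its second probe set. H2-Q5, an MHC class Ib gene whose probes may be shared with close relatives, and Sla2, an adaptor that dampens T cell receptor signalling, differed by 2.69 and 2.55. Cracdl, Gfod1 and Agpat4 differed by 1.05, 1.61 and 1.32. In all of these both Th1 arrays were above both Th17 arrays, and the adjusted p was 0.230. Cracdl passed the filter only through the Th1 arrays, so a difference was built into its being tested.

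On the Th17 side Ppp1r14c, an inhibitor of protein phosphatase 1, read 4.78 and 5.15 in Th17, 2.77 and 2.78 in Th1, and 2.74 and 2.72 in Th2. It was above the filter value in Th17 alone: the difference from Th2, 2.24, was called (adjusted p = 0.0204), and that from Th1, 2.19, was not (adjusted p = 0.0898). Like Stard8 and Ahrr, it passed the filter only through the Th17 arrays, so a difference was built into its being tested. Bpifc read 5.73 and 6.56 against 2.29 and 2.34, with an adjusted p of 0.147. Mt2, a metallothionein that binds zinc and copper, read 12.14 and 12.79 against 9.58 and 9.93. Calcrl, the receptor partner for calcitonin gene-related peptide and adrenomedullin, read 11.14 and 11.11 against 8.45 and 7.50, with 13.18 and 12.82 in Th2. Th1 was lower than Th2 in Calcrl by 5.02, which was called (adjusted p = 0.0270). Cysltr2, a receptor for cysteinyl leukotrienes, and Cd200r1, an inhibitory receptor, differed by 2.87 and 3.03. Dach2 differed by 3.21, but by 1.06 on its second probe set, and Cd200r1 by 0.57 on its second. Nfia differed by 1.05, and its second probe set by 0.01 in the opposite direction. The adjusted p was 0.166 for Nfia and 0.230 for the remaining 5.

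Genes of B cells and of myeloid cells lay higher in the Th17 than in the Th1 arrays and unevenly between arrays. Of the 27 macrophage and monocyte markers on the array 21 were tested, 10 were apart and higher in Th17 and 0 higher in Th1, with a median difference of 2.44 in favour of Th17. Lyz2, encoding lysozyme of macrophages, read 8.92 and 7.39 in Th17, 1.86 and 4.64 in Th1, and 10.26 and 6.83 in Th2. Csf1r, the receptor for the macrophage growth factor CSF-1, read 6.26 and 3.29 in Th17 against 2.31 and 2.44 in Th1. Lyz1, the other lysozyme gene, read 10.87 and 9.35 against 2.76 and 6.57. Th1 was lower in all 3 of these genes, and the Th17 arrays differed from each other. Adgre1, a macrophage surface receptor, stayed between 3.26 and 3.57 in the 4 arrays, and Cd163, Marco, Retnla and Fcgr1 were at or below 3.06 in all 6. The median level of the list was 2.65 and 3.96 in Th1 against 7.43 and 4.21 in Th17, and its summed linear level, as log2, 12.22 and 12.23 against 13.61 and 13.43. In Th1 that sum is carried by Ctss and Ccr2, which T cells also express: without them it was 8.14 and 9.56 in Th1 against 12.83 and 11.21 in Th17, with 15.06 and 12.46 in Th2. Ctss, a lysosomal protease, read 11.65 and 11.97 in Th1 against 12.16 and 12.47 in Th17. Without Th17 replicate 2, 16 of the 21 members were apart and higher in Th17, and without Th17 replicate 1, 9 were, with 1 higher in Th1. Over all tested genes these settings gave 5.56% and 6.22% higher in Th17. Th17 replicate 1 was the highest of the 4 arrays in 18 of the 21 members.

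B cell markers gave 9 of 12 tested members (17 on the array) apart and higher in Th17. Ighm, the heavy chain of IgM, read 13.22 and 11.78 in Th17 against 7.78 and 10.49 in Th1, and Cd79b, a chain of the B cell receptor, 7.91 and 6.06 against 3.77 and 4.61. Pax5, the factor that defines B cells, lay between 2.05 and 2.10 in all 6 arrays. The summed level of the list was 11.19 and 12.15 in Th1 against 14.38 and 13.28 in Th17, with 14.24 and 14.86 in Th2. The Th1 arrays were thus the lowest.

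Of 16 tested dendritic cell and MHC class II genes (21 on the array), 6 were apart and higher in Th17. H2-Aa, an MHC class II chain, read 9.52 and 9.89 in Th17 against 3.35 and 8.30 in Th1, so that Th1 replicate 1 stood far below the other 3 arrays. Xcr1, Cd209a and Siglech were at or below 3.06 in all 6 arrays. The summed level of this list was 12.76 and 12.40 in Th1 against 14.21 and 13.06 in Th17, with 14.47 and 14.31 in Th2. Neutrophil markers were mostly below the filter, with 6 of 14 tested, and Mmp9 was the 1 member apart and higher in Th17. Of the erythroid and platelet markers 5 of 12 were tested. Pf4, a platelet chemokine, was apart and higher in Th17 at 8.97 and 5.91 against 5.69 and 5.78, with 11.84 and 7.33 in Th2. Of the mast cell and basophil markers 6 of 13 were tested, and 2 were apart and higher in Th1. Cpa3, a mast cell protease, read 5.34 and 6.66 in Th1 against 2.44 and 3.13 in Th17. Fcer1a, a chain of the IgE receptor, read 2.75 and 4.39 against 2.36 and 2.34. Both genes were highest in Th2 replicate 1, at 9.25 and 7.48. T cell identity genes differed little: 0 of 13 were apart, and their median level lay between 11.49 and 11.74 in the 6 arrays.

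Several of the largest differences on the Th17 side were in genes known from other cells. Dab2, an endocytic adaptor found in macrophages, read 8.90 and 9.68 in Th17 against 2.28 and 2.40 in Th1, the largest gap of all at 6.95 (SE 1.51, adjusted p = 0.493). Lum, encoding a matrix proteoglycan of fibroblasts, read 11.34 and 7.32 against 4.55 and 2.65, and Mmp12, the macrophage elastase, 11.05 and 9.92 against 2.75 and 6.92. Cxcl3, a neutrophil-attracting chemokine counted here in the Th17 programme, read 12.74 and 9.28 in Th17, 3.90 and 6.62 in Th1, and 13.65 and 12.01 in Th2. Cxcl3 was thus as high in Th2 as in Th17, as were Lyz2, Ighm and Mmp12 (12.38 and 11.02 in Th2). The part of other cells in the Th17 list was not tested.

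**Figure D4:**
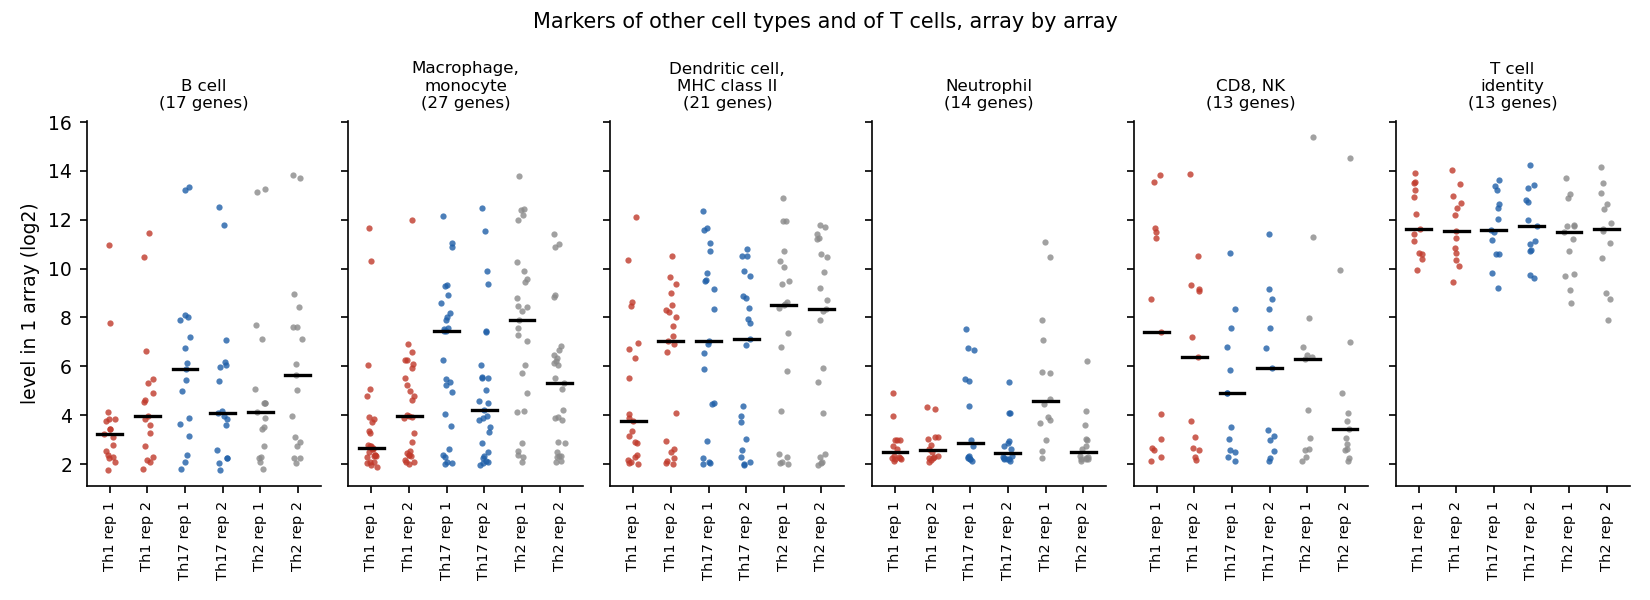
Level (log2, vertical axis) of each marker on the array (points) and the median of its list (black bar) in the 6 cultured arrays: Th1 red, Th17 blue, Th2 grey. The macrophage median was 2.65 and 3.96 in Th1 against 7.43 and 4.21 in Th17, while the T cell identity median stayed between 11.49 and 11.74.

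**Figure D5:**
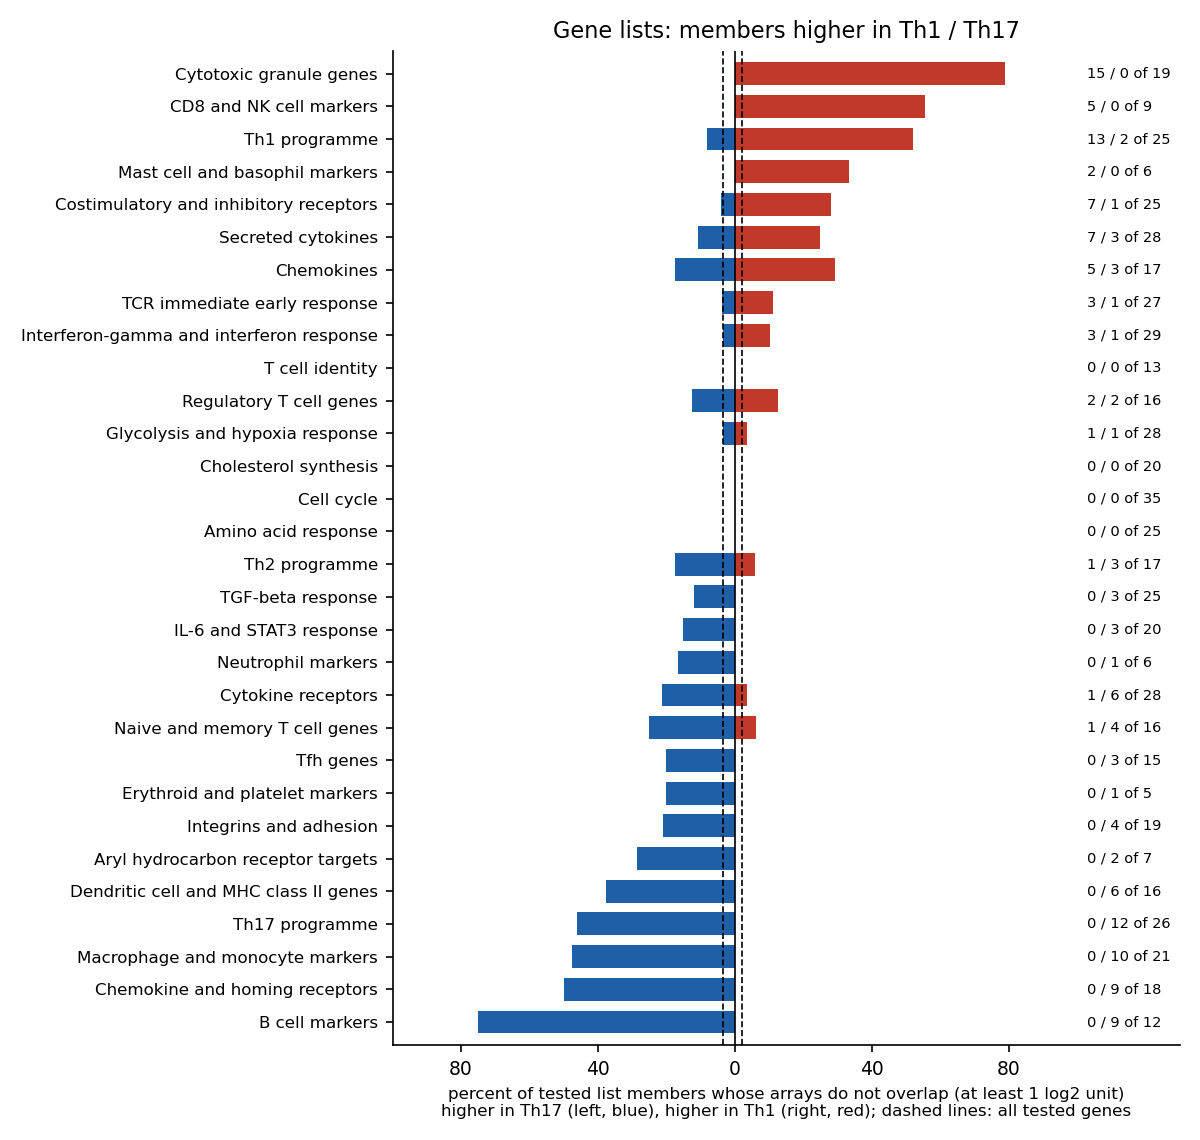
Percent of tested members of each of 30 gene lists whose arrays lay apart and higher in Th1 (red, right) or in Th17 (blue, left), with counts at the right as higher in Th1 / higher in Th17 of tested. Dashed lines are the shares over all tested genes, 1.99% and 3.50%, and the cytotoxic granule list (15 of 19 higher in Th1) and the B cell list (9 of 12 higher in Th17) extend farthest.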

How the data were processed

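RNA was extracted with Trizol, labelled by in vitro transcription and hybridised to Affymetrix arrays. Values were summarized by the authors with GCRMA, per the submitters' processing notes; not given in the sources used here are its version and the set of arrays normalized together. The authors deposited log2 values, which entered the fit unaltered; the number of arrays limits the precision. Of 45101 probe sets, 34945 had 1 gene symbol, 932 several, 9160 none in the annotation supplied, and 64 were controls; each of 18193 genes was represented by its brightest probe set, averaged over 8 arrays. The Tfh arrays entered only that choice and the alternative fit on 8 arrays.

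The 6 cultured arrays were fitted with limma 3.58.1 in R 4.3.3 (1 coefficient per group, empirical Bayes with a trend, 3 residual and 1.75 prior degrees of freedom, two-sided, Benjamini-Hochberg over 10635 genes). SE is that of the fit. Named genes were the 12 called genes with the largest differences each way, filled with genes apart by smallest p, then lineage genes, and in each list called members and the 3 with the smallest p; others named were chosen after their values were seen. Members and the 30 lists were chosen with earlier results of these data known. Plots used matplotlib 3.10.9 in Python 3.11.15. Promoter windows came from RefSeq (GRCm38.p6), the most upstream start per gene; motif shares of genes apart replaced those of called genes, too few for a share. The procedure was tested on simulated data with 200 changed genes. Alternatives covered scaling, filters, probe set choice, variance models, arrays used, a replicate block and leaving out each array.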

Additional observations from a re-analysis of the deposited data

How the results depend on the processing

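As deposited, 1 gene was called higher in Th1 and 2 higher in Th17. The same counts came from quantile normalization, a median shift, no filter, the probe set highest over 6 arrays, robust variance and no fold threshold. The filter at the 65th percentile gave 1 and 0, since it left both Th17 genes untested. Averaged probe sets, eBayes without a trend, the 4 Th1 and Th17 arrays alone, and a replicate block over 6 or over 4 arrays each gave 0 and 0. The fit on all 8 arrays gave 9 and 15. Leaving out each replicate gave 0 to 0 higher in Th1 and 0 to 2 higher in Th17. Th1 and Th17 deviations of same-numbered replicates correlated at 0.257, but with 2 numbers and no label that pairs them the replicate block is a hint only. For genes apart, a threshold of 0 gave 1761 higher in Th1 and 1630 higher in Th17, and a threshold of 2 gave 72 and 134. Leaving out 1 array, an alternative chosen after seeing the data that is looser by construction, gave 378 to 498 and 465 to 727. Under the other alternatives the counts were 178 to 235 and 274 to 381. Over the genes followed one by one, 0 changed sign under a scaling, filter, probe set or model alternative, and of all their values 1823 kept direction and call, 33 lost the call, 19 gained one and 11 changed sign. Uncalled Th1 minus Th17 differences that changed sign when an array was left out ranged from -0.76 to 1.73 (Il12rb2), -1.87 to 0.67 (Cxcr3), -0.89 to 3.01 (Il18r1), -1.15 to 4.29 (Il10), -1.51 to 1.28 (Gata3), -0.37 to 0.18 (Smad7), -0.04 to 0.02 (Il9), -3.84 to 0.58 (Ccl20) and -0.30 to 3.29 (Il13); each rests on arrays that overlap. The cause of the other changes was not tested.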

Other observations

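In the metabolic lists many members differed between replicates and few lay apart between the groups when all 4 arrays were used. In the amino acid response, genes induced when amino acids are scarce or proteins misfold, replicate 1 exceeded replicate 2 by at least 1 log2 unit in 19 of 25 tested members in Th1 and in 22 of 25 in Th17, with 17 in common and 0 lower by as much in either. Over all 10635 tested genes the counts were 758 and 715, with 230 in common. Chac1, an enzyme that degrades glutathione, read 8.39 and 4.76 in Th1 and 8.12 and 4.24 in Th17. Asns, asparagine synthetase, read 12.52 and 10.91 in Th1 and 12.33 and 10.33 in Th17. With all 4 arrays 0 of 25 were apart between the groups, a count that needs all of them. Without Th1 replicate 2, 10 were apart and higher in Th1, and without Th17 replicate 1, 14 were. Without Th1 replicate 1 or Th17 replicate 2, 3 and 7 were apart and higher in Th17. Over all tested genes these settings gave 3.79% and 4.16% higher in Th1, and 6.84% and 5.56% higher in Th17. In Th2, replicate 1 was higher by 1 in 9 members.

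Cholesterol synthesis genes had the same order, higher in replicate 1 in 16 of 20 in Th1 and 10 of 20 in Th17. With all 4 arrays 0 were apart between the groups, against 8 higher in Th1 without Th1 replicate 2 and 5 higher in Th17 without Th1 replicate 1. Msmo1, a sterol oxidase, read 11.54 and 8.04 in Th1 and 10.44 and 8.98 in Th17. Glycolysis and hypoxia genes gave 16 of 28 and 10 of 28, with Aldoc, an aldolase, apart and higher in Th17 and Ankrd37 apart and higher in Th1. Cell cycle genes leaned the other way in Th1 only: 9 of 35 were higher by 1 in replicate 2, and Mki67, a proliferation marker, read 11.74 and 12.94 in Th1 against 11.73 and 12.15 in Th17. Of the 35, 0 were apart, and 9 were apart and higher in Th1 without Th1 replicate 1.

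Naive and memory T cell genes included 4 apart and higher in Th17 of 16 tested (S1pr1, Il6ra, Igfbp4 and Id3) and 1, Klf2, higher in Th1. Without Th1 replicate 1 the counts were 7 and 4. Igfbp4, which binds insulin-like growth factors, read 11.41 and 13.04 in Th17 against 9.67 and 9.23 in Th1, and its 5 other probe sets also put Th17 higher, by 2.24 to 3.04. Pparg, a nuclear receptor of lipid metabolism, read 7.15 and 7.78 in Th17, 6.05 and 4.46 in Th1, and 10.26 and 9.64 in Th2.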
